A study of Homo sapiens with 3 samples.

Results

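Doxycycline was used to switch on the Notch intracellular domain (NICD) in LS174T-tetON-NICD cells, a derivative of the human colon carcinoma line LS174T, and the effect on gene expression was read on 1 two-colour oligonucleotide array. The treated culture received doxycycline at 100 ng/ml for 24 h without tumour necrosis factor (TNF), and its RNA was labelled with Cy3. Untreated cells of the same line, labelled with Cy5, were the control on the same array. This array is 1 of 3 in the study, and the other arrays held cells given TNF (50 ng/ml for 24 h) and cells given TNF together with doxycycline, each against untreated control. All groups carried the inducible construct and were grown in the same serum-containing medium. The array was chosen by its treatment label and is described across its annotated genes, of which 15182 of 17559 gave a signal above background in at least 1 channel.

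Each condition had 1 culture and 1 array, with no dye swap, so no p-value can be given and a gene is counted as higher or lower when its ratio passed 2-fold. No cells without the NICD construct were given doxycycline, so what NICD did and what the drug did cannot be told apart. Whether the line is 1 clone, and which stretch of which Notch receptor was expressed, is not given in the sources used here.

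Notch receptors are cut when a neighbouring cell presents a ligand, and the freed intracellular domain enters the nucleus. There it joins the DNA-binding protein RBPJ and a Mastermind coactivator and switches on genes of the HES and HEY families, which encode transcriptional repressors. In the intestinal epithelium, HES1 represses ATOH1, the factor that directs progenitors to the secretory lineages, so Notch activity favours absorptive over goblet, Paneth and enteroendocrine fates. OLFM4, which encodes the secreted glycoprotein olfactomedin-4, marks crypt base cells of the human intestine and depends on Notch there.

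The genes that mark Notch activity in this experiment are HES5, HEYL, HES4, HES1 and OLFM4, and the 250 bases before the start of each are shown because these genes are the readout of NICD activity. Each holds letters that RBPJ is known to bind. Capitals mark GTGGGAA, searched on both strands, so that TTCCCAC is the same motif on the other strand. Sequences are from RefSeq on GRCh38.p14 and run 5′ to 3′ towards the gene.
HES5: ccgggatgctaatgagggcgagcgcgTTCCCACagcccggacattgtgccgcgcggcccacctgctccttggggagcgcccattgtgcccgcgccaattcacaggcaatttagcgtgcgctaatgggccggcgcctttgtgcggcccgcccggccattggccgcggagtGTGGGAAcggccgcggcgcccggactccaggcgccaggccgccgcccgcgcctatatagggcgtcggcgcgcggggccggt
HEYL: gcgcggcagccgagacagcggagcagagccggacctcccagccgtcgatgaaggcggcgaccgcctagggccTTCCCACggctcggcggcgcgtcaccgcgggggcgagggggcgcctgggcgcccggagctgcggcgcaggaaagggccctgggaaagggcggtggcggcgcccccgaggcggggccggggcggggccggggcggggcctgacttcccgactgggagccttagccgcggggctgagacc
HES4: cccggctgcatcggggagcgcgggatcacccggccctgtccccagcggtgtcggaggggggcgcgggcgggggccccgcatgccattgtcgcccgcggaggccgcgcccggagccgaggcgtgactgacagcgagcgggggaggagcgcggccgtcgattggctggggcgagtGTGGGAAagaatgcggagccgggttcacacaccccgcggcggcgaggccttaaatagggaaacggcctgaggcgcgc
HES1: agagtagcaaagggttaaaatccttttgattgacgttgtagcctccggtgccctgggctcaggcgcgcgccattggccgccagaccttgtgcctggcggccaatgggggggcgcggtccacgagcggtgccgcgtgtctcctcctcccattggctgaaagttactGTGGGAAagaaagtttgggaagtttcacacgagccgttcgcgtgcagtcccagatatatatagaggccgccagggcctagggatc
OLFM4: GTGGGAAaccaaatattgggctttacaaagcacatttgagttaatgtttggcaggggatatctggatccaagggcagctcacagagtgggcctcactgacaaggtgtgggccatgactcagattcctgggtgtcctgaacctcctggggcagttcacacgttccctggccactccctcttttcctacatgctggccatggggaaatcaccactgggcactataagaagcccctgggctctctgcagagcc

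HES5 (chr1:2530264-2530513, minus strand) held 2 matches, at 224 to 218 and at 81 to 75 bases before the start. HEYL (chr1:39639644-39639893, minus strand) held 1 at 178 to 172 bases, HES4 (chr1:1000098-1000347, minus strand) 1 at 77 to 71 bases, and HES1 (chr3:194135898-194136147, plus strand) 1 at 85 to 79 bases. In OLFM4 (chr13:53028563-53028812, plus strand) the match lay at the far edge of the window, 250 to 244 bases before the start. The motif was present in 1492 of all 27305 promoters of this length (5.46%) and in 611 of the 12199 promoters of measured genes that the table held (5.01%). Among genes at least 2-fold higher, 12 of 137 promoters had it (8.76%), and among genes at least 2-fold lower 2 of 42 (4.76%). For known Notch target genes the share was 6 of 17 (35.3%). The 5 genes shown, chosen as markers of Notch activity, are counted both among the 12 and among the 6. These shares are therefore not read as an excess of the motif. HES5 was the 1 gene of the higher group with 2 matches, which 18 of the 12199 promoters had (0.148%). The higher genes with a match were, besides the 5 shown, H19, SULF2, SCIN, CTSE, MAOA, PPID and TMCC1, with log2 ratios from 1.06 to 2.09. The same window of NRARP and HES7, which are also Notch targets, and of PLA2G2A, one of the most raised genes, held no match. A match describes letters and is not evidence of a binding site.

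Most genes stood close to no change. The median log2 ratio over 15182 genes was 0.02, the quartiles were -0.09 and 0.15, and 91.2% lay within 0.5 of 0. With doxycycline, 173 genes were at least 2-fold higher, 1.14% of those measured, and 59 were at least 2-fold lower, 0.389%. In the setting used here, 41 genes were at least 4-fold higher against 4 lower, and 16 were at least 8-fold higher against 0 lower. A further step, at least 16-fold higher, was reached by 5 genes. An offset added to both channels limits how far a dim gene can fall, so these counts do not compare the reach of the sides. The authors' deposited table, which adds no offset, had 537 genes past 2-fold higher and 203 lower. There DOK7 (-4.44), FAIM2 (-3.80), PTGDR (-3.39) and MUC2 (-3.39) were more than 8-fold lower, and OLFM4 stood at 7.58. In 3 of the higher genes the control spot was not above background, so their ratios are lower bounds. Higher genes made up 74.6% of all genes past 2-fold, and 96.6% (542 higher and 19 lower) when the array was centred on its median in place of the loess curve.

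Signals below are spot intensities above the blank spots, on a linear scale. The treated channel was brighter throughout, with a median probe signal of 55.7 against 30.7 in the control channel. The log2 ratio is corrected for this, and an offset added to both channels draws the ratios of dim genes towards 0, so a ratio is not the quotient of the printed signals. The cytokeratin gene KRT18, with 17863 in the control and 36791 in treated cells, had a log2 ratio of 0.13.

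**Figure D1:**
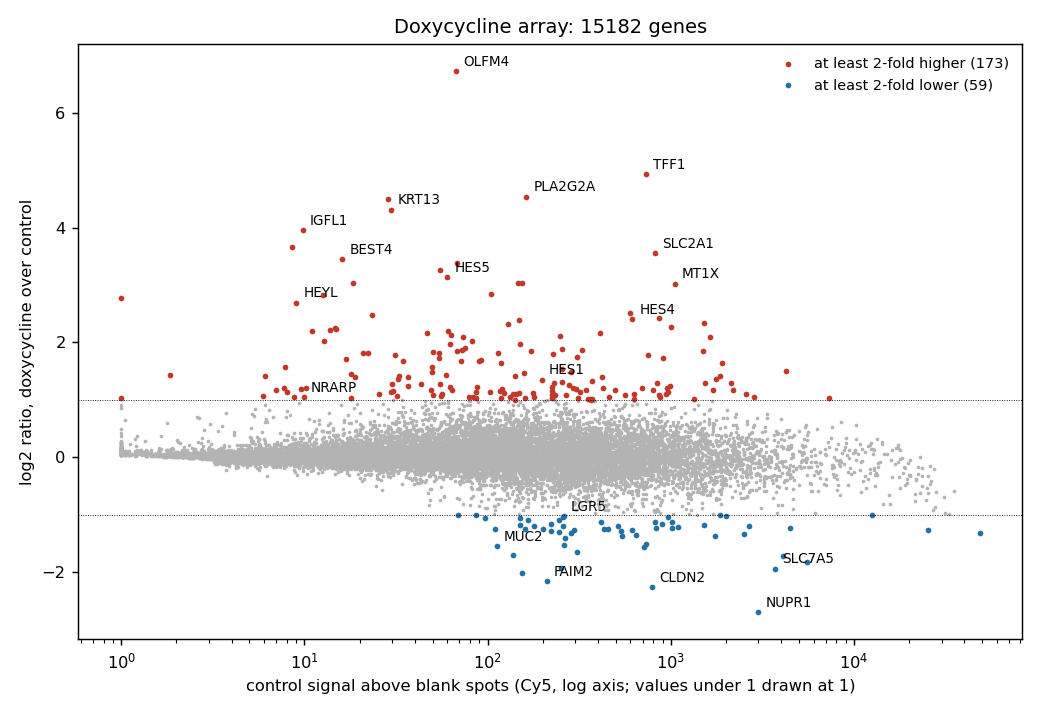
Log2 ratio of doxycycline over control (vertical axis) against the control signal above blank spots (horizontal log axis) for the 15182 measured genes, 1 point per gene. Red points are the 173 higher genes and blue points the 59 lower ones, all past 2-fold. OLFM4 lies highest at 6.73 and NUPR1 lowest at -2.70.

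Cells had the markers of a colon epithelial line. In the control channel the epithelial adhesion gene EPCAM gave a signal of 8422, KRT18 gave 17863 and the intestinal transcription factor gene CDX2 gave 393, and all 9 epithelial markers on the list with a probe were above background. The leukocyte gene PTPRC and the collagen genes COL1A1 and COL1A2 of fibroblasts were not above background, and the endothelial genes CDH5 and VWF gave 3.30 and 8.92. CD68 (102), CD14 (38.1), DCN (170) and LUM (40.8) gave signals, with log2 ratios from -0.22 to 0.48. On the doxycycline array, 19203 control and 20156 treated gene probes of 24460 were above background and no spot was saturated, while OLFM4, TFF1 and UBD saturated where both treatments were given. The controls hybridised beside doxycycline and beside both treatments differed with an SD of 0.0833 on the log2 scale, and 2 of 14530 genes by 2-fold or more, both measured on levels with the offset added, which shrinks differences between dim signals. Against the TNF array the doxycycline control differed with an SD of 0.131, with 4 such genes. The TNF array gave the least even readings: different probes of 1 gene disagreed with an SD of 0.718 there, against 0.236 for doxycycline and 0.292 for both treatments. Each SD was taken over probes that passed the signal filter on the doxycycline array. The TNF array had the dimmest treated channel, with a median probe signal of 18.6. All controls are untreated cells and may share 1 RNA preparation, on which the labels are silent, so ratios of different arrays are set side by side without a measure of likeness.

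Known target genes of Notch were described first, as the readout of NICD activity. Of 23 measured genes on the list of Notch targets, 7 passed 2-fold upwards and 1 downwards, beside 1.14% and 0.389% of all genes. The same shares of all genes stand beside the counts of every list below. The list median was 0.30, beside 0.02 for all genes, and most members moved little. The higher ones were mainly OLFM4, SNAI2 and members of the HES and HEY families. GATA3, the remaining member, was not above background.

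OLFM4 had the highest ratio of the array in the setting used here. Its signal was 66.9 in the control and 23319 in treated cells, a log2 ratio of 6.73 (106-fold). It was also the highest with TNF and doxycycline together, where the treated spot was saturated and the log2 ratio was at least 7.82, while TNF alone gave -0.66. The authors' deposited table gives 7.58 for doxycycline.

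HES5, a repressor gene best known from neural progenitors, went from a signal of 60.3 to 1626, a log2 ratio of 3.13 (8.77-fold). Its control signals on the other arrays were 64.4 and 62.2, so the 3 untreated readings lay close together. The ratio was 3.72 with both treatments and -0.20 with TNF alone.

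HEYL, a HEY-family repressor, went from 8.99 to 545. The log2 ratio was 2.69 (6.45-fold), 2.85 with both treatments and 0.01 with TNF alone. Because the control was dim, this value rested on the treatment of background: the authors' deposited table gives 5.06, and the local background of the scanner gave 1.34.

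HES4 had a bright control signal of 613 and reached 6456, a log2 ratio of 2.41 (5.31-fold). It stood at 2.51 with both treatments and at -0.59 with TNF alone. HES1, the family member that represses ATOH1 in the intestine, went from 197 to 1047, a log2 ratio of 1.35 (2.56-fold), with 1.00 for both treatments and 0.22 for TNF. These 2 genes were thus already well above background in untreated cells, unlike HEYL, and ranged from 1.35 to 1.79 (HES1) and from 2.35 to 2.94 (HES4) over all settings tried.

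SNAI2, a zinc-finger repressor gene known from epithelial-to-mesenchymal transition, gave 0.561 in the control, not above background, and 481 in treated cells, a log2 ratio of at least 2.77 (6.83-fold). This bound holds for the setting used here only. Over all settings tried, SNAI2 ranged from 1.33, with the local background, to 8.86. With both treatments it was at least 4.24, from 2.32 in the control to 1644. NRARP, which encodes a feedback inhibitor that binds NICD, went from 9.89 to 116, a log2 ratio of 1.05 (2.06-fold), and 1.48 with both treatments. The authors' deposited table gives 2.69 for it, and the local background gave 0.52.

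HES6 was the 1 member at least 2-fold lower. It encodes a HES-family protein that is known to oppose HES1. Its signal was 615 in the control and 425 in treated cells, a log2 ratio of -1.27 (2.41-fold lower), against -1.99 with both treatments and -3.33 with TNF alone. After median centring it stood at -0.82.

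The other family members did not pass 2-fold. HEY2 was at 0.34 (2.74 and 31.0, 2 probes) and HEY1 at 0.22 (6.13 and 26.3), and both had control signals near background. In the authors' deposited table, which adds no offset, they stood at 3.12 and 1.24. HES7 was at 0.26 and HES2 at 0.15. Of further known targets, CDKN1A, the gene of the cell cycle inhibitor p21, was at 0.71, SOX9, a transcription factor gene of crypt cells, at 0.62, CCND1, the gene of cyclin D1, at 0.44 and MYC at -0.36. CDKN1A passed 2-fold with the local background (2.77) and after median centring (1.24), and SOX9 after median centring (1.16). JAG1, a Notch ligand gene, was at 0.17, IGF1R at 0.30, BCL6 at 0.19, CD44 at -0.02, NOTCH3 at -0.03, DTX1 at -0.14 and LFNG at -0.31.

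**Figure D2:**
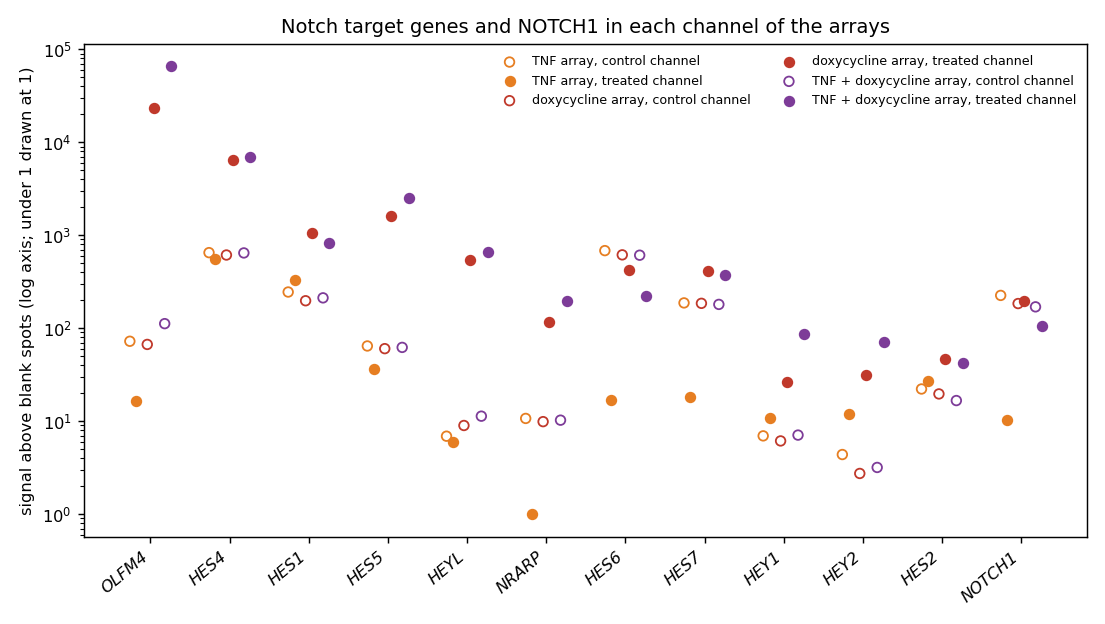
Signal above the blank spots (vertical log axis, values under 1 drawn at 1) of HES and HEY genes, OLFM4, NRARP and NOTCH1 in the control (open) and treated (filled) channel of each of the 3 arrays. For OLFM4, HES5, HEYL, HES4, HES1 and NRARP, both treated channels with doxycycline lie above all 3 controls. HES6 and NOTCH1 do not show this. The signals are not corrected for the brighter treated channel of the doxycycline array, so a higher treated point alone is not a change. HES7, for example, went from 185 to 408 on that array at a log2 ratio of 0.26.

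No component of the pathway itself passed 2-fold in the setting used here. Of 35 measured receptors, ligands, proteases and nuclear factors, none passed 2-fold either way, and the median was 0.06. The furthest were the ligand genes JAG2 at -0.99 (109 and 57.4), DLL4 at -0.74 (48.5 and 21.1) and DLL1 at -0.55 (151 and 155), and on the other side ADAM10, the protease that cuts the receptor, at 0.66 (162 and 503). Some passed 2-fold under other settings: JAG2 stood at -1.78 and DLL4 at -2.06 in the authors' deposited table, and ADAM10 at 1.03 after median centring. The probes of NOTCH1 do not report the transgene as such. Its 2 probes gave log2 ratios of -0.67 (343 and 360) and -0.18 (24.9 and 29.7), a mean of -0.43. Where these probes lie relative to the expressed domain is not given in the sources used here. They check neither the induction nor the labels.

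No transcription factor of the secretory lineages passed 2-fold. Of 17 measured, 0 were higher and 0 lower, 2 lay above 0, and the median was -0.21, beside 0.02 for all genes. The median was below 0 under every setting tried, from -0.45 to -0.06. ATOH1 itself was dim in both channels, 6.09 and 9.19, and its log2 ratio was -0.05. Control signals were also dim for SPDEF (12.7), GFI1 (34.1), NEUROD1 (6.15) and PAX4 (14.9). The offset leaves genes this dim little room to fall 2-fold, so a fall in them could not be seen. KLF4, a goblet cell factor that also acts in differentiated enterocytes, was the highest at 0.94 (269 and 1021), and it passed 2-fold with the local background (1.05), after median centring (1.40) and in the authors' deposited table (1.06). XBP1, which expands the secretory apparatus, was at -0.75 and FOXA2 at -0.56.

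Goblet cell products split. Of 27 measured, 3 were past 2-fold upwards and 2 downwards, beside 1.14% and 0.389% of all genes, and the median was -0.04. MUC2, the gel-forming mucin of goblet cells, had a signal of 112 in the control and 19.4 in treated cells, a log2 ratio of -1.55 (2.92-fold lower). It stood at -1.48 with both treatments and at 1.28 with TNF alone. The authors' deposited table gives -3.39 for doxycycline, and the local background gave -0.49. SPINK4, a goblet cell protease inhibitor, was at -1.16 on the mean of 2 probes (221 and 132), and AGR2, a disulfide isomerase needed for mucin folding, was at -0.97. SPINK4 was under 2-fold after median centring (-0.88) and with the local background (-0.62), while AGR2 passed it with the local background (-1.06).

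In the other direction TFF1, a trefoil peptide known mainly from the gastric surface, went from 732 to 44661, a log2 ratio of 4.94 (30.6-fold), the highest ratio after OLFM4. KLK10, a secreted serine protease, was at 1.86 (1487 and 10294) and QSOX1, a sulfhydryl oxidase, at 1.82 (114 and 935). TFF3, the trefoil peptide of intestinal goblet cells, stood at 0.01.

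Paneth cell genes gave 1 of 14 higher and 1 lower, beside 1.14% and 0.389% of all genes, with a median of 0.07. The higher one was PLA2G2A, a secreted phospholipase with antibacterial activity, at 162 in the control and 9105 in treated cells, a log2 ratio of 4.54 (23.3-fold). REG4, a lectin gene of secretory cells, was the lower one at -1.38, and at -0.95 after median centring. LYZ, the lysozyme gene, was at -0.37 and the defensin gene DEFA5 at -0.01. None of 12 measured enteroendocrine genes passed 2-fold, and CHGA stood at -0.06. Control signals were dim for CHGA (10.6), CHGB (3.92), SCG2 (4.45), SYP (15.7), TPH1 (8.34) and GAST (10.9). The offset leaves genes this dim little room to fall 2-fold, so a fall in them could not be seen. PCSK1N (671) and PYY (131) had brighter controls and stood at -0.35 and -0.15.

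Genes of BEST4-positive cells, a subset of mature absorptive cells in the human colon, gave 4 of 13 higher and none lower. The list median was 0.29, and 1.14% of all genes were higher and 0.389% lower. Of the 4 higher genes on the list, 3 are described here. BEST4, which encodes a chloride channel, went from 16.1 to 1155, a log2 ratio of 3.45 (10.9-fold). SPIB, an ETS transcription factor gene, went from 18.5 to 873 (3.04, 8.24-fold), and GUCA2A, the gene of the hormone guanylin, from 13.8 to 400 (2.21, 4.63-fold). These 3 had dim controls, and all 3 kept a ratio past 2-fold under every setting tried. CA7, a carbonic anhydrase gene of the same cells, was at least 0.65, while the proton channel gene OTOP2 (380 and 719) stood at 0.04.

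The control signals of some of these genes differed between arrays along with the treated signal of the same array. For SPIB the controls were 1.00, 18.5 and 137 on the TNF, doxycycline and combined-treatment arrays, beside treated signals of 2.85, 873 and 8558. For GUCA2A the controls were 13.5, 13.8 and 137 beside 11.5, 400 and 12346. SERPINA12 had controls of 13.3, 28.6 and 108, and IGFL1 4.45, 9.77 and 47.8. The part of this in the ratios was not tested.

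Other absorptive genes gave 3 of 27 higher and 0 lower, beside 1.14% and 0.389% of all genes, with a median of 0.01. CEACAM6, a surface adhesion molecule, was at 1.36, DPP4, a brush border peptidase, at 1.08 and FABP1, the fatty acid-binding protein of enterocytes, at 1.07. DPP4 (0.92) and FABP1 (0.75) were under 2-fold with the local background.

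Stem cell and Wnt target genes gave 0 of 21 higher and 3 lower, beside 1.14% and 0.389% of all genes, with a median of -0.03. SMOC2, a crypt base marker, was at 307 in the control and 123 in treated cells, a log2 ratio of -1.65 (3.14-fold lower). ZNRF3 (265 and 131, -1.40) and RNF43 (148 and 91.3, -0.99) encode paired ubiquitin ligases that remove Wnt receptors. LGR5, the R-spondin receptor of stem cells, was at -1.03 (259 and 185). AXIN2, a general Wnt target, stood at -0.17 and ASCL2 at -0.40, so the lower members were not the list as a whole. OLFM4, another crypt base marker, went the other way. The direction of SMOC2, ZNRF3 and LGR5 was negative under every setting, but LGR5 was at -0.71 after median centring, and SMOC2 and ZNRF3 were at -0.50 and -0.70 with the local background.

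**Figure D3:**
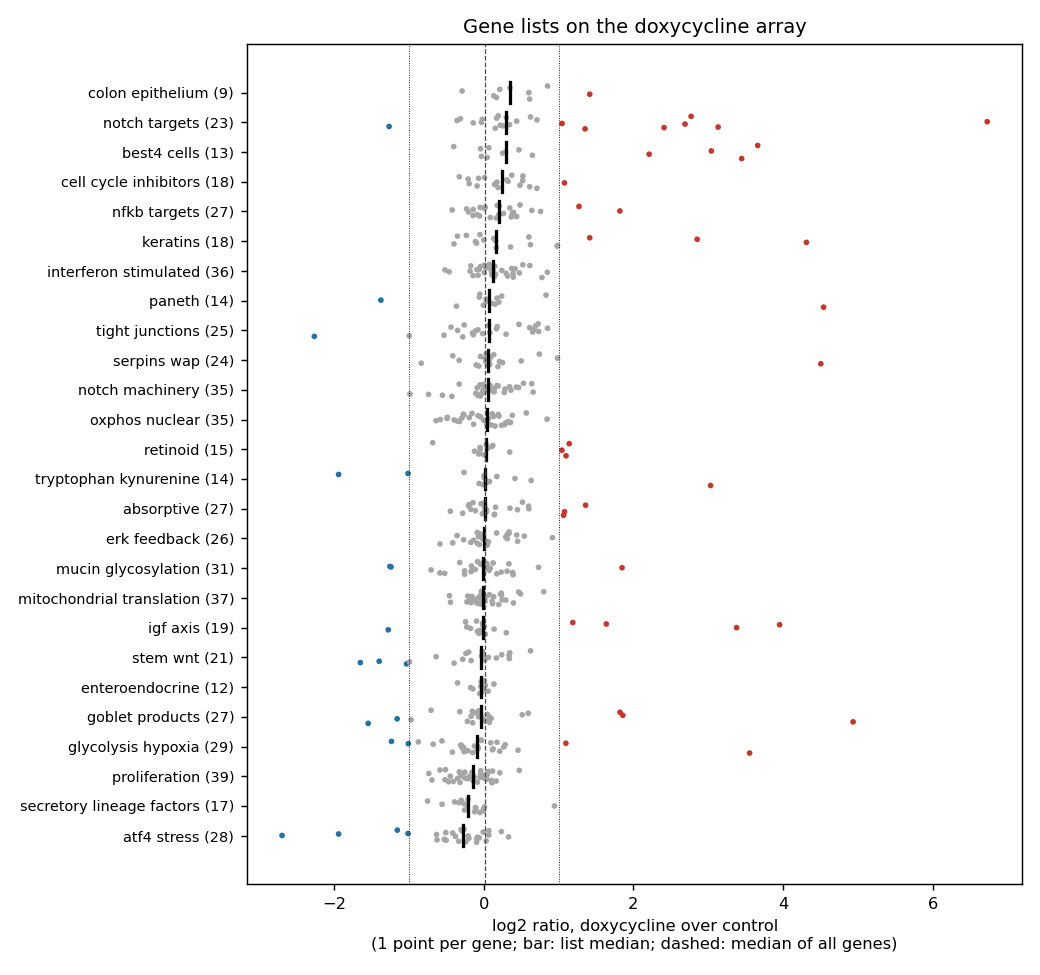
Log2 ratio of doxycycline over control (horizontal axis) for the measured genes of 26 gene lists, with the number measured in brackets, 1 point per gene and a black bar at each list median. Red and blue points lie beyond 2-fold (dotted lines) upwards and downwards, lower bounds are drawn at their fitted value, and the dashed line is the median of all genes at 0.02. Lists are ordered by their median, and OLFM4 is the point furthest to the right at 6.73.

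Several of the most raised genes belong to families that are not classical Notch targets. Of 18 measured keratins, 3 were higher and 0 lower, beside 1.14% and 0.389% of all genes. Their median was 0.16. KRT13, a keratin of stratified epithelia, went from 29.6 to 2755 (4.31, 19.9-fold), KRT17 from 104 to 1912 (2.85, 7.22-fold) and KRT19 from 1844 to 9323 (1.42, 2.67-fold). KRT5 and KRT6A were both at 0.98, just under 2-fold, and passed it in the authors' deposited table at 1.27 and 1.35.

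Genes of the insulin-like growth factor axis and the IGF-like (IGFL) family gave 4 of 19 higher and 1 lower. The median was -0.02, and 1.14% of all genes were higher and 0.389% lower. The growth factor genes themselves, IGF1 and IGF2, stood at 0.02 and -0.06, with control signals of 39.4 and 33.0. IGFL1, a small secreted factor, went from 9.77 to 1529 (3.95, 15.5-fold), and IGFL2 stood at 1.64 and IGFL4 at 1.19, each over 2 probes. IGFL4 was at 0.56 with the local background and at 3.23 in the authors' deposited table. IGFBP3, which binds insulin-like growth factors outside the cell, went from 68.2 to 2114 (3.38, 10.4-fold). IRS2, an adaptor of the insulin receptor, was the lower one at -1.28 (537 and 360), and at -0.85 after median centring. IGFL1, IGFL2 and IGFL4 are related in sequence, and whether their probes distinguish them is not given in the sources used here.

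SERPINA12, the gene of the adipokine vaspin, went from 28.6 to 3135 (4.51, 22.7-fold) and was the 1 of 24 serpin and WAP-domain genes past 2-fold. SLC2A1, which encodes the glucose transporter GLUT1, went from 817 to 18867 (3.55, 11.7-fold). It was not accompanied by the glycolysis and hypoxia list, which had 2 of 29 higher and 2 lower and a median of -0.09. CA12 was at 1.10, while the hypoxia-responsive genes CA9 and BNIP3 were at -1.01 and -1.23. After median centring these 2 stood at -0.92 and -0.75.

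Other genes among the 20 highest were SLC3A1 (55.2 and 1695, 3.26), a subunit of the cystine transporter of kidney and gut, CAPN10 (155 and 2985, 3.04), a calpain protease, and TDO2 (147 and 2851, 3.03), which opens the tryptophan ring. MT1X (1050 and 16578, 3.02) encodes a metallothionein, SPARC (12.5 and 658, 2.83) a matrix glycoprotein and CNN3 (597 and 6820, 2.52) a calponin. Metallothionein genes are related in sequence, and whether the MT1X and MT4 probes tell them from other members is not given in the sources used here. Of the genes given only as lower bounds, SNAI2 was the highest, followed by UBD, a ubiquitin-like modifier, at 1.43 or more and LAMA4, a laminin chain, at 1.01 or more. UBD was at 0.68 and LAMA4 at 0.03 with the local background.

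**Figure D4:**
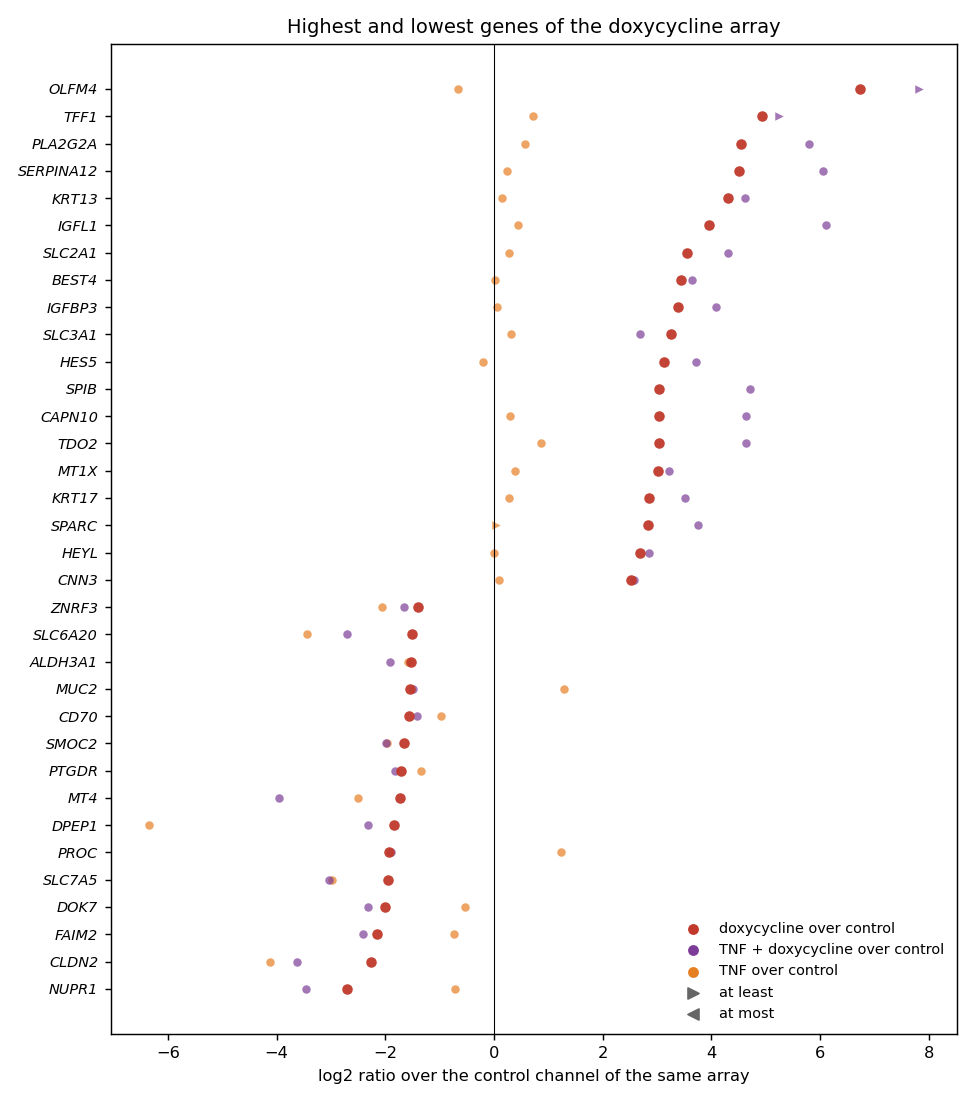
Log2 ratio over the control of the same array (horizontal axis) for the highest genes reported here and the 15 lowest of the doxycycline array (red), with the values of the same genes for TNF plus doxycycline (purple) and TNF (orange), and triangles where only a bound is known. The red points run from 6.73 for OLFM4 to -2.70 for NUPR1, and MUC2 and PROC are the 2 lower genes with a TNF ratio above 1, at 1.28 and 1.23. The genes were chosen on the red values.

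The lowest gene in the setting used here was NUPR1, a stress-induced chromatin protein gene, at 2987 in the control and 801 in treated cells, a log2 ratio of -2.70 (6.49-fold lower). Its ratio was -3.47 with both treatments and -0.72 with TNF alone. NUPR1 belongs to a list of genes known to respond to ATF4, the factor of the amino acid and endoplasmic reticulum stress response, of which 0 of 28 were higher and 4 lower. Their median was -0.28, and it became 0.09 after median centring. Of all genes, 1.14% were higher and 0.389% lower. SLC7A5 (3696 and 1745, -1.94) and SLC3A2 (1856 and 1678, -1.01) encode the light and heavy chains of one amino acid transporter, and SLC7A5 was at -0.55 with the local background and SLC3A2 at -0.48 after median centring. GDF15 was at -1.16 as the mean of 2 probes that differed with an SD of 1.60, and at -0.92 after median centring. ATF4 itself stood at -0.10, and its known targets ASNS at -0.09, TRIB3 at -0.53 and CHAC1 at -0.63.

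CLDN2, the gene of a pore-forming tight junction protein, went from 789 to 243 (-2.27, 4.81-fold lower) and was the 1 of 25 tight junction and adhesion genes past 2-fold on the lower side, with 0 higher and a median of 0.06. CLDN3 stood just inside, at -0.998 (1385 and 1256). FAIM2 (210 and 27.3, -2.16), an inhibitor of Fas-mediated cell death, and DOK7 (153 and 12.8, -2.01), an adaptor of the muscle kinase MuSK, were the other 2 genes at least 4-fold lower. With the local background FAIM2 was at -1.26 and DOK7 at -0.95. In the authors' deposited table they stood at -3.80 and -4.44, both lower than NUPR1 there (-2.76). Besides SLC7A5, SMOC2, MUC2 and ZNRF3, the 15 lowest also held PROC, the gene of the anticoagulant protein C (-1.93), DPEP1, a membrane dipeptidase (-1.83), MT4 (-1.72), PTGDR, a prostaglandin D2 receptor (-1.70), CD70 (-1.57), ALDH3A1, an aldehyde dehydrogenase (-1.52), and SLC6A20, a proline transporter (-1.50). No gene measured only in the control channel went below -0.26 as a bound.

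Cell division genes showed no member past 2-fold among 39 measured, with a median of -0.14 that became 0.28 after median centring. NUSAP1 (-0.59) passed 2-fold with the local background, at -1.01. The lowest were BIRC5 (-0.74) and MCM7 (-0.69). Of 18 cell cycle inhibitors 1 was higher, GADD45A at 1.08 (0.95 with the local background), with a median of 0.25. None of 26 ERK feedback genes, 37 mitochondrial translation genes, 35 oxidative phosphorylation genes and 36 interferon-stimulated genes passed 2-fold in the setting used here, with medians of 0.01, -0.01, 0.04 and 0.12. Some members passed it under other settings. EGR1 stood at 2.04 and MX2 at 1.63 in the authors' deposited table, and SDHB at 1.39 and MTIF2 at 1.28 after median centring. With the local background DUSP6 turned from -0.59 to 1.49 and NDUFS8 from -0.64 to 1.88. Of 27 NF-kB targets, 2 were higher and 0 lower (median 0.20): the chemokine gene CXCL2 at 1.82 and PTGS2, which encodes cyclooxygenase-2, at 1.27. PTGS2 was at 0.62 with the local background. With TNF alone these 2 stood at 5.08 and 1.39.

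Some of the higher genes had dim controls, although their median control signal was above that of all genes. The share of all genes with so dim a control was not counted. The control signal was under 50 for 49 of the 173 higher genes and for 0 of the 59 lower ones, and its median was 123 for higher, 453 for lower and 68.6 for all genes. The offset of 50 leaves a gene with so dim a control little room to fall 2-fold. The contrast between higher and lower genes is therefore not read as a trait of the genes. How much of it came from the processing was not tested. With the local background, 228 genes were higher and 43 lower, and these included 90 of the 173 and 29 of the 59. Of the 16 higher genes with several probes, 6 had all of them past 2-fold, as did 4 of the 6 lower ones.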

How the data were processed

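Per the labels' protocols, cellular total RNA was amplified as amino allyl aRNA and labelled with Cy5 (control) or Cy3 (treated). The deposited scanner values are spot intensities on a linear scale at 2 wavelengths, for 27456 spots of which 24460 were gene probes and 2680 blanks. The series table holds log2 ratios that the authors deposited. All 19535 of them for the doxycycline array were matched within 0.001 by log2 of Cy3 over Cy5, less the blanks' trimmed mean and the array median, so the ratio runs as treated over control, and 4925 entries were empty. The probes' genome build was not given in the sources used here.

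The 5%-trimmed mean of the blanks was taken as background, because the scanner's local background intensity rose with the signal of the spot (r = 0.960 in Cy5 and 0.948 in Cy3 over probes, log scale). Signals were corrected with normexp (offset 50) and normalised by loess (limma 3.58.1, R 4.3.3), control spots having weight 0. Signal was above background where it passed the blanks' 95th percentile. The filter asked for this in either channel of the doxycycline array and kept 17130 annotated probes. Of all probes 20236 had 1 gene symbol, of which 2899 were brought up to date, 17238 were kept and 99 had no match, and 4224 had none. Probes of 1 gene were averaged. Where 1 channel was not above background, or a spot was saturated, the ratio is a bound, in the first case against the lowest signal above background on that array. The procedure was tested on simulated data. Python 3.11.15, numpy 2.4.6, pandas 2.3.3 and matplotlib 3.10.9 were used.

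The number of arrays limits the precision, and no test was possible. The named genes were the 20 highest and 15 lowest measured in both channels without saturation, the 10 highest and 5 lowest given as bounds, all Notch targets, up to 6 members furthest from 0 of each other list, and HES1, HES4, HES5, HEYL, OLFM4, NOTCH1, ATOH1 and MUC2. List members named at smaller ratios (among them AXIN2, ASCL2, TFF3, OTOP2, ASNS, TRIB3, ATF4 and DEFA5) and genes with a promoter match were added after their values were seen. The comparison and the 29 lists were chosen with earlier results of these data known. Alternatives were 11 other settings of background, normalisation, filter and probe summary. Of the named genes, 1 among the 20 highest is not reported here.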

Additional observations from a re-analysis of the deposited data

Results flagged for a closer look

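For 4 genes that were lower with doxycycline alone, the array of both treatments minus the TNF array gave a value above 0, so that doxycycline stood on opposite sides of 0 without and with TNF. DPEP1 stood at -1.83 with doxycycline, -2.32 with both and -6.34 with TNF, a difference of 4.02 on top of TNF. SLC3A2 stood at -1.01, -1.17 and -3.01 in the same order, a difference of 1.84. IRS2 stood at -1.28, -1.32 and -2.86, a difference of 1.54. HES6 stood at -1.27, -1.99 and -3.33, a difference of 1.34. In each the TNF array, whose probes of 1 gene disagreed with an SD of 0.718, gave the lowest value. The difference was not tested, since each value comes from 1 array.

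Among probes without a gene symbol, which entered no comparison, 8 of 3268 above background (0.245%) passed 2-fold upwards with doxycycline and 8 downwards. The highest had a log2 ratio of 2.47, with signals of 50.1 in the control and 869 in treated cells.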

How the results depend on the processing

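No paired analysis was possible because there was 1 replicate per group. The counts of 173 genes higher and 59 lower depended most on how dim spots and the array scale were treated. Plain subtraction of the blanks gave 751 higher and 323 lower, the authors' deposited log2 ratios 537 and 203, normexp with an offset of 16 gave 256 and 100, and median centring 542 and 19. Median centring moved the median of all genes from 0.02 to 0.12 and the median of the Notch targets to 0.62, against 0.30 (range 0.23 to 0.62 over all settings). No background subtraction gave 196 and 68, and the other filters, the brightest probe and loess within each print block, the last added after seeing the data, gave 171 to 190 higher and 59 to 63 lower. Of 69 named genes past 2-fold, 49 stayed past it in the same direction with the local background and 59 after median centring. FUT3, a fucosyltransferase gene, turned from -1.24 to 0.076 with the local background. Causes were not tested. Signal over background limits genes with dim controls, for which the size of a ratio is uncertain.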

Other observations

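Mucin-type glycosylation genes, on a list of enzymes that build blood group and Lewis sugars on mucins, gave 1 of 31 higher and 2 lower. Their median was -0.005, and 1.14% of all genes were higher with doxycycline and 0.389% lower. FUT1, which makes the H antigen, went from a signal of 172 to 1346, a log2 ratio of 1.85 (3.60-fold), and stood at 2.76 with both treatments. FUT4 (159 and 72.8, -1.26) and FUT3 (1016 and 755, -1.24), which add fucose to form Lewis structures, were the lower ones. FUT2, the secretor enzyme, was at 0.73 (17.3 and 98.9).

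Retinoid genes gave 3 of 15 higher and 0 lower, beside 1.14% and 0.389% of all genes, with a median of 0.03. RARRES1, a gene named for its response to retinoic acid, was at 1.14 (85.8 and 426), ALDH1A1, which makes retinoic acid, at 1.10 (142 and 636) and CYP26B1, which degrades it, at 1.04 (8.75 and 112). With both treatments they stood at 0.46, 3.07 and 2.38. With the local background, RARRES1 and ALDH1A1 were both at 0.95 and CYP26B1 at 0.37, so none of the 3 passed 2-fold there. On the tryptophan list, 1 of 14 was higher, TDO2, and 2 were lower, both chains of the amino acid transporter SLC7A5 and SLC3A2. The median was 0.01, beside the same shares of all genes.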
